A study of Homo sapiens with 18 samples.

Results

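The gene group described here is the machinery that makes ribosomal RNA and builds it into ribosomes. It was given as a list of 43 gene symbols for nucleolar processing factors and RNA polymerase I (Pol I) components, all of which were found among the 20365 genes of both deposited expression tables. By role the list holds 6 genes of the Pol I machinery, 5 organisers of the nucleolus, 3 box C/D and 3 box H/ACA ribonucleoprotein genes, 14 factors of the small ribosomal subunit and 12 of the large subunit.

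The libraries, in 6 groups of 3, came from PC3, a long-established human line derived from a prostate cancer metastasis. In the knockdown experiment, cells grown in 10% serum received lentiviral vectors with a short hairpin RNA (shRNA): EloB KD targets Elongin B, EloC KD targets Elongin C, and Control KD is the control, which thus also carries a vector. In the peptide experiment, cells in 2.5% serum were given a peptide at 12500 nM for 24 h, either with the BC-box of wild type (WT peptide), with a mutated BC-box (mutant peptide) or with a scrambled sequence (scrambled peptide). The labels name 1 hairpin group per gene and give no hairpin or peptide sequence, and the peptide experiment has no group without a peptide.

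As background, Pol I transcribes the ribosomal DNA repeats in the nucleolus into 1 long precursor, helped by UBTF, the SL1 complex and RRN3. Small nucleolar ribonucleoproteins modify the precursor, the small-subunit processome folds and cuts its first part, and a series of large-subunit factors matures the rest. Elongin C pairs with Elongin B, and the pair binds proteins with a BC-box, as in cullin-RING ubiquitin ligases and the Elongin transcription elongation complex. The libraries measured mRNA, so the data bear on the messages of this machinery, while the output of Pol I itself was not analysed here.

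Recovered read totals ran from 40.3 to 57.2 M per library in the knockdown experiment and from 31.7 to 34.7 M in the peptide experiment. Both targeted genes were lower in the libraries labelled for them: ELOB fell by 2.82 ± 0.20 on the log2 scale in EloB KD (SE, limma adjusted p = 3.55e-05) and ELOC fell by 3.12 ± 0.10 in EloC KD (limma adjusted p = 1.41e-07). ELOC differed by 0.01 ± 0.10 in EloB KD (limma adjusted p = 0.971). ELOB differed by 0.47 ± 0.20 in EloC KD (limma adjusted p = 0.0803, and 0.035 with the replicate number as a block). The epithelial markers KRT8, KRT18, KRT19 and EPCAM and the mesenchymal VIM had 365.5 counts or more in all 18 libraries, with a sum of 62523 to 107035. KLK3, which encodes prostate-specific antigen, was at 0 in all 18. Of 7 markers of fibroblasts, endothelium and leukocytes (sum 2614 to 6768), PTPRC, CD3E and VWF did not pass 13.5 counts, while CD68, PECAM1 and COL1A1 reached 3046, 2239 and 2464.

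The 43 genes together took 0.726% ± 0.040 of all normalised counts in Control KD, 0.679% ± 0.057 in EloB KD and 0.764% ± 0.042 in EloC KD (SD, n = 3). The groups overlapped in this share, but EloB KD was below the same-numbered control in all 3 numbers and EloC KD above it in all 3. In these bulk libraries, fewer cells of a kind and less RNA per cell cannot be told apart. In the peptide experiment the share was 0.834% ± 0.020 with the scrambled peptide, 0.855% ± 0.007 with the mutant and 0.870% ± 0.013 with the WT peptide. Levels between genes were compared per kilobase of exon. In Control KD the highest were NCL (7895 normalised counts per kb), DDX21 (7638) and NPM1 (6363), and the median was 1036. At the low end were UTP15 (248.4), RRN3 (143.7) and NOP2 (5.5). NCL, DDX21 and NPM1 alone held 30.0% to 33.8% of the members' counts in the 9 libraries of the knockdown experiment, controls included, and 28.1% to 29.6% in those of the peptide experiment. The low level of NOP2, an rRNA cytosine methyltransferase, stood beside an annotation fact: 54.4% of its exon bases (2550 of 4687) are shared on the same strand with another gene model, ENSG00000285238, in GENCODE 29. The part of this overlap in the NOP2 count was not tested.

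The promoters of 4 members are shown because these were the genes called against Control KD in both knockdowns: DDX21 and WDR75 were lower in EloB KD and higher in EloC KD, and FBL and NAT10 were lower in both. The share of all genes called in both knockdowns is not given here. Each promoter shown is the 250 bases before the RefSeq start of the gene in GRCh38.p14, 5′ to 3′ on the gene's strand. Capitals mark an E-box (CACGTG), a GC box (GGGCGG) or an ETS motif (CCGGAAG) on either strand. DDX21 lies at chr10:68955920-68956169 on the plus strand, WDR75 at chr2:189441224-189441473 on the plus strand, FBL at chr19:39846380-39846629 on the minus strand and NAT10 at chr11:34105379-34105628 on the plus strand.
DDX21: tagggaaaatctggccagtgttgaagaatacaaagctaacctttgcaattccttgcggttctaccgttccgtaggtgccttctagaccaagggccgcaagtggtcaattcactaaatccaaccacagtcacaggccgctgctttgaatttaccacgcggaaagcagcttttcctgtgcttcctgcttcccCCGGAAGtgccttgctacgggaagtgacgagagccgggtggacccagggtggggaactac
WDR75: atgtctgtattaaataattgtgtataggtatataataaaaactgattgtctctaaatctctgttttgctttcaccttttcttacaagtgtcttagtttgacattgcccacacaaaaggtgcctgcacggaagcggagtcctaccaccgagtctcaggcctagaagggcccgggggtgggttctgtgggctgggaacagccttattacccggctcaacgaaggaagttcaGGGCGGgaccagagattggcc
FBL: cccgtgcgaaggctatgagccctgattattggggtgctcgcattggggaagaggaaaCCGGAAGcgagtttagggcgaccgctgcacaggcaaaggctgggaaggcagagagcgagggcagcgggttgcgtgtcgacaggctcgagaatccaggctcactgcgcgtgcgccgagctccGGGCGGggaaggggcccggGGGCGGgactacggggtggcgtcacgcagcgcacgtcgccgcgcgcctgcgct
NAT10: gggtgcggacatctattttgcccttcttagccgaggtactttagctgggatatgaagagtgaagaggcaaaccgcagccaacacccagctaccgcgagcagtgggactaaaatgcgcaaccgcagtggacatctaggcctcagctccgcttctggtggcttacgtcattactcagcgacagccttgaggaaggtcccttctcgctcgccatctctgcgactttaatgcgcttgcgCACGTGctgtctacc

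The 4 windows held different letters. DDX21 had 1 ETS motif 60 bases before the start, and WDR75 had 1 GC box 21 bases before it. FBL had GC boxes 72 and 53 bases and an ETS motif 193 bases before the start, and NAT10 had an E-box 15 bases before it. Among the 36 members with a promoter in the table, an E-box was present in 4 (11.1%), against 6.34% of all 35116 promoters and 8.68% of those of expressed genes. The GC box was present in 25 (69.4%), against 42.6% of all and 66% of expressed promoters, and the CCAAT box (CCAAT) in 10 (27.8%), against 32% and 35.2%. The ETS motif, searched only after these promoters had been read, was present in 12 (33.3%), against 8.52% of all and 15.1% of expressed promoters. It was present in 3 of the 9 matched members that were higher in EloC KD, in 2 of the 6 that were lower in EloB KD, in 6 of the 14 that were lower in EloB KD than in EloC KD and in 5 of the 18 called in no knockdown comparison. These matches describe letters in a window and were tied to no binding data.

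Elongin B knockdown was followed by lower messages for 6 members and higher ones for none. The 6 were DDX21, a nucleolar RNA helicase; POLR1A, the largest catalytic subunit of Pol I; FBL, the ribose methyltransferase of box C/D particles; WDR75, a small-subunit processome protein; NAT10, the rRNA cytidine acetyltransferase; and GNL3, the nucleolar GTPase nucleostemin. Their decreases were modest, from 1.21-fold to 1.36-fold. With 14% of members called, against 20.5% of all genes tested (11.2% lower, 9.34% higher), the count was near the background. The median log2 change of the members was -0.16, against 0.00 over all genes, and 36 of 43 were negative. The members' median was -0.058 with quantile scaling and -0.099 without Control KD replicate 3. The 5 epithelial and mesenchymal markers summed to 84123 to 89856 counts in EloB KD and 90158 to 107035 in Control KD, and the 7 markers of other cells to 4864 to 5418 and 4251 to 5099; the part of either list in these differences was not tested.

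DDX21 had 39727, 36389 and 38911 normalised counts in the 3 Control KD libraries and 26261, 27827 and 30920 in EloB KD. Every EloB KD library lay below every control, and the difference was -0.44 ± 0.09 on the log2 scale (SE, n = 3, limma adjusted p = 0.00633). POLR1A, on the minus strand of chromosome 2 from 86020216 to 86106155 (hg38), had 7012, 7551 and 7519 counts in Control KD and 5689, 6273 and 5797 in EloB KD. It also fell without overlap, by 0.31 ± 0.08 on the log2 scale (limma adjusted p = 0.024).

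GNL3 had 13953, 13146 and 13034 counts in Control KD and 10718, 10805 and 11685 in EloB KD. These groups were separate as well, with a log2 difference of -0.27 ± 0.07 (limma adjusted p = 0.0255). WDR75 went from 15497, 15157 and 14929 counts to 11548, 12963 and 13178, a log2 difference of -0.28 ± 0.08 (limma adjusted p = 0.0326). WDR75 belongs to the subcomplex that joins Pol I transcription with early processing, and its 3 knockdown libraries were the 3 lowest of the 6.

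FBL had 7950, 7968 and 7606 counts in Control KD and 5797, 6466 and 7045 in EloB KD, a log2 difference of -0.29 ± 0.09 (limma adjusted p = 0.0404). NAT10 had 9236, 8829 and 8815 counts in Control KD and 6741, 7694 and 7609 in EloB KD, a log2 difference of -0.29 ± 0.09 (limma adjusted p = 0.0435). Neither gene's groups overlapped. In all, 15 members (34.9%) had groups that did not overlap, each lower in EloB KD, against 38.4% of all genes.

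The count for EloB KD changed with single libraries. It was 2 without Control KD replicate 1, 1 without Control KD replicate 2 and 2 without Control KD replicate 3. All genes called in these fits numbered 2054, 1920 and 2372, beside 2822 in the main fit. The member count was 1 without EloB KD replicate 1, 2 without EloB KD replicate 2 and 3 without EloC KD replicate 1. There the genes called numbered 1996, 1977 and 2502. With the replicate number as a block the member count was 15, all lower, beside 4996 of 13764 genes. EloB KD replicate 1 was the lowest of the 9 knockdown libraries for 28 of the 43 members. With the 3 libraries numbered 1 left out together no member was called by limma, beside 1271 of 13726 genes. DDX21 stayed past the threshold in each fit that left out 1 library. It missed it (adjusted p = 0.0762) when all 3 libraries numbered 1 were left out. The calls of the other 5 were lost in 4 to 8 of the 9 fits that left out 1 library, with adjusted p up to 0.235 over all alternatives.

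Elongin C knockdown gave a different picture, with 11 members higher and 2 lower. Of the higher ones, 9 were subunit assembly factors: RRP12, NOP14, RRP9, UTP15, WDR43 and WDR75 of the small subunit and RRS1, RRP1 and NOP2 of the large subunit. POLR1B and DDX21 were also higher, and FBL and NAT10 lower. The 30.2% of members called stood against 42.5% of all genes (21.3% higher, 21.2% lower), so the members were not called more often than genes in general, and 25.6% were called higher. The median log2 change was 0.14, against 0.01 over all genes, and 0.077 without EloC KD replicate 3 or 0.079 without Control KD replicate 1.

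Markers moved in EloC KD as well. The 5 epithelial and mesenchymal markers summed to 79258 to 87997 counts, below all controls, with mean EPCAM at 515.6 against 1715 in Control KD and KRT18 at 2963 against 5690. The 7 markers of fibroblasts, endothelium and leukocytes summed to 6033 to 6768, above the controls, with mean COL1A1 at 2257 against 570.1, while VWF, PTPRC and CD3E were at 8.58 or less in each EloC KD library. The part of these markers in the members' differences was not tested.

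RRP12, a factor in export of the pre-ribosomal subunits, lies on the minus strand of chromosome 10 from 97356358 to 97426076 (hg38). It had 2157, 2492 and 2935 counts in Control KD and 3978, 4664 and 4310 in EloC KD. The groups were far apart, and the log2 difference was 0.78 ± 0.12, or 1.72-fold (SE, n = 3, limma adjusted p = 0.000452). NOP14, a processome component on the minus strand of chromosome 4 from 2937933 to 2963385 (hg38), had 5337, 5495 and 6011 counts in Control KD and 7689, 8600 and 7777 in EloC KD. It was higher in every EloC KD library, by 0.51 ± 0.09 on the log2 scale (limma adjusted p = 0.00114).

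RRS1, which acts in assembly of the large subunit, had 1409, 1536 and 2327 counts in Control KD and 2479, 2945 and 3270 in EloC KD. The third control lay close to the lowest EloC KD library without reaching it, and the log2 difference was 0.75 ± 0.18 (limma adjusted p = 0.00815). UTP15, a member of the same processome subcomplex as WDR75 and WDR43, went from 1536, 1499 and 1676 counts to 2013, 2105 and 2138. Its difference was 0.41 ± 0.11 on the log2 scale (limma adjusted p = 0.0101), with no overlap.

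DDX21 reached 46055, 46356 and 47466 counts in EloC KD, above all 3 controls, with a log2 difference of 0.28 ± 0.09 (limma adjusted p = 0.0243). WDR75 reached 17181, 18338 and 17443, a log2 difference of 0.22 ± 0.08 (limma adjusted p = 0.0488). Both genes thus lay above the controls here and below them in EloB KD. The EloC KD call for DDX21 was lost (adjusted p up to 0.0835 over all alternatives) with quantile scaling, without Control KD replicate 2 or without any 1 of the EloC KD libraries. That for WDR75 (adjusted p up to 0.136) was lost with no filter and on leaving out any single library other than EloB KD replicate 1. RRP9, the protein specific to the U3 particle, rose by 0.52 ± 0.16 (limma adjusted p = 0.0257) although its groups overlapped, with 3779 counts in the highest control and 3709 in the lowest EloC KD library. The RRP9 call and that of RRP1 (adjusted p up to 0.0854 and 0.0929) were lost without Control KD replicate 1 or 2 or EloC KD replicate 2 or 3. The WDR43 call (up to 0.132) was lost with no filter and without any single library other than EloB KD replicates 1 and 3. That of NOP2 (up to 0.149) was lost with no filter, with DESeq2 and on leaving out any one of Control KD replicates 1 and 2, EloC KD replicates 1 and 3 and EloB KD replicate 3. Both were also lost with the libraries numbered 1 left out together.

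The 2 members that fell were FBL and NAT10. NAT10 had 7522, 6441 and 7389 counts in EloC KD, all below the controls, a log2 difference of -0.34 ± 0.09 (limma adjusted p = 0.0117) that stayed past the threshold under every alternative run. FBL had 6517, 6346 and 6932 counts, also below all controls, a log2 difference of -0.25 ± 0.09 (limma adjusted p = 0.0409). Its call was lost (adjusted p up to 0.117) with no filter, with edgeR, and without any 1 of the Control KD libraries, EloB KD replicate 2, EloC KD replicate 1 or EloC KD replicate 2. Groups did not overlap for 20 members (46.5%), 14 higher and 6 lower in EloC KD, against 53.7% of all genes. The number of members called fell from 13 to 7 without Control KD replicate 1 and 6 without Control KD replicate 2. It was 8 without EloC KD replicate 1 and 7 without EloC KD replicate 2. Over all genes these fits called 5048, 4858, 5178 and 4495, beside 5844 in the main fit. With the replicate block 24 members were called (18 higher, 6 lower), beside 7841 of 13764 genes.

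**Figure D1:**
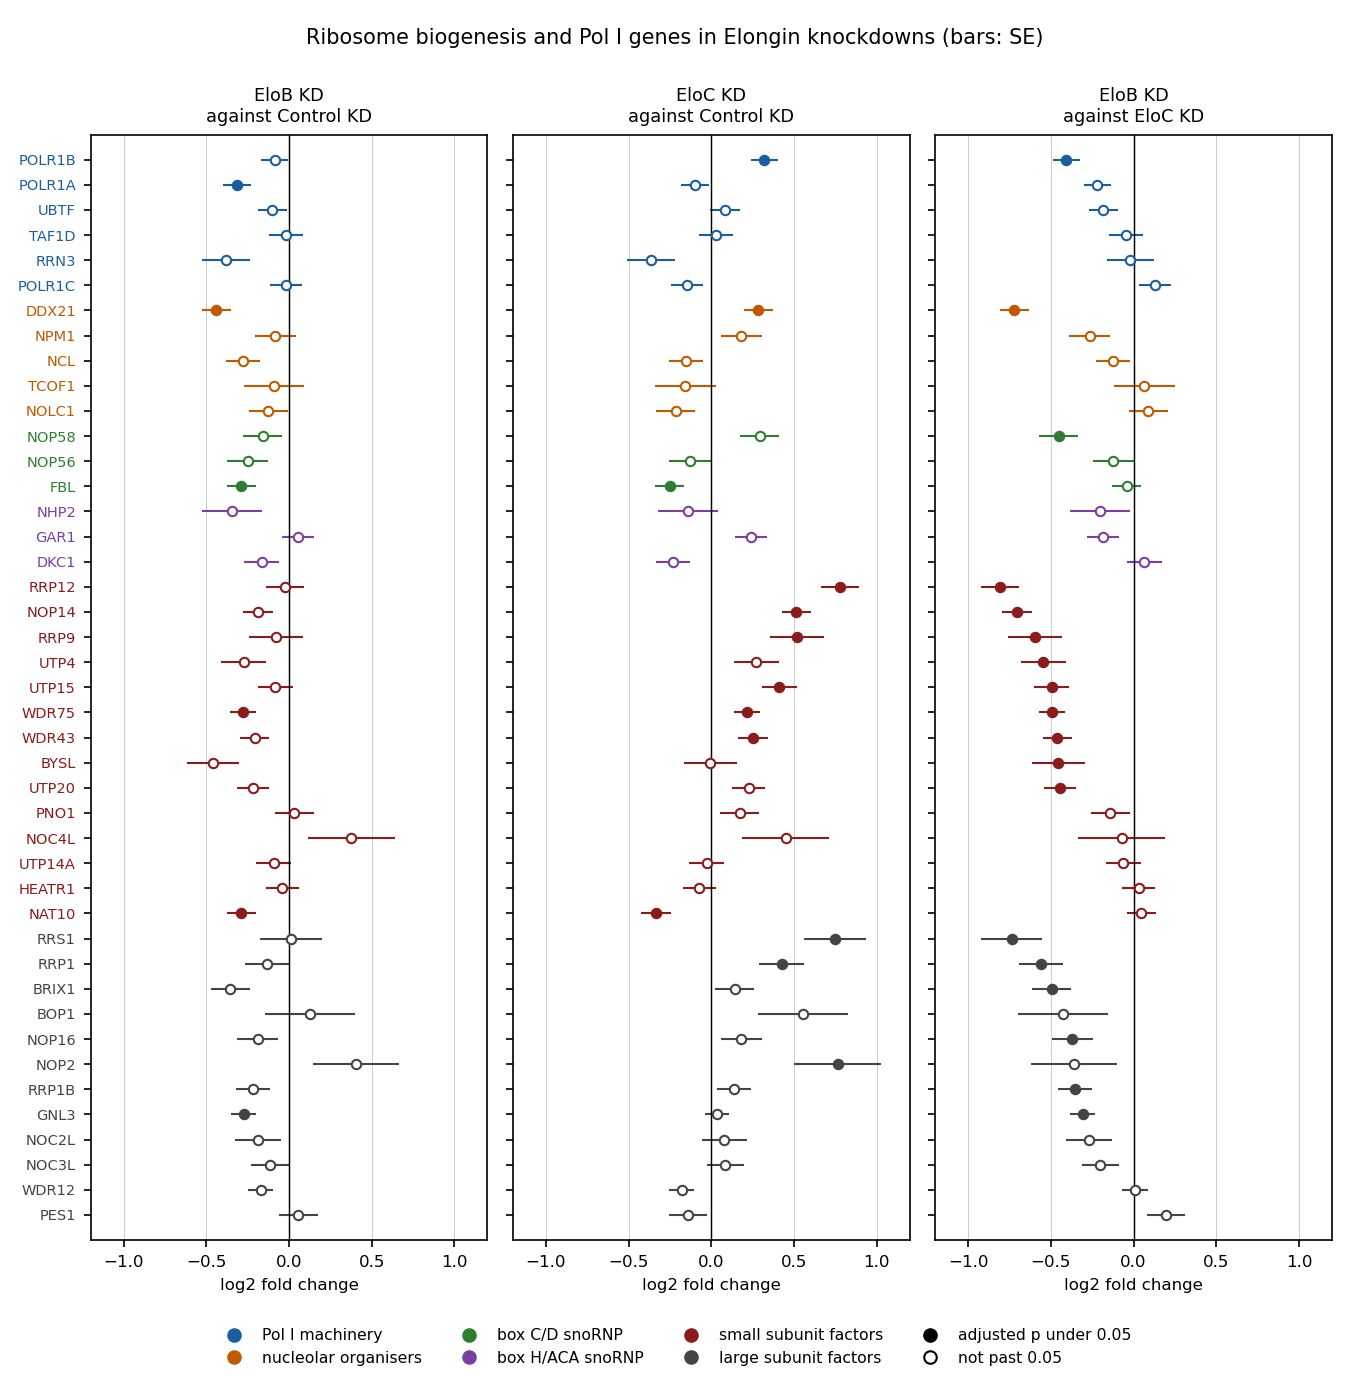
Log2 fold change of each of the 43 members (rows, coloured by role) in the 3 knockdown comparisons, with bars for the standard error and filled points for an adjusted p under 0.05. In EloB KD against Control KD the 6 filled points lie below 0, in EloC KD 11 lie above and 2 below, and in EloB KD against EloC KD all 18 lie below 0.

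Set directly against each other, the knockdowns differed for 18 members, each lower in EloB KD than in EloC KD. These comprised 9 of the 14 small-subunit factors, 6 of the 12 large-subunit factors, and POLR1B, DDX21 and NOP58. The called share of 41.9% was near the background of 46.1%, while in direction all genes split evenly (23.8% lower, 22.3% higher). The median difference was -0.26 on the log2 scale, against -0.02 over all genes, and -0.15 with quantile scaling.

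The smallest adjusted p-values were those of DDX21, NOP14, RRP12 and WDR75. DDX21 was 1.65-fold lower in EloB KD (-0.72 ± 0.09 on the log2 scale, limma adjusted p = 0.000114), and its highest EloB KD library, 30920, was well under its lowest EloC KD library, 46055. NOP14 had 4608, 4848 and 5334 counts in EloB KD, a log2 difference from EloC KD of -0.70 ± 0.09 (limma adjusted p = 0.000144). RRP12 had 2484, 2355 and 2557, a log2 difference of -0.81 ± 0.12 (limma adjusted p = 0.000309).

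WDR75 differed by -0.49 ± 0.08 on the log2 scale (limma adjusted p = 0.000631). All 4 genes had separate groups and kept the call under every alternative run. Of the 18, 7 were called in this comparison and against neither control: the box C/D core protein NOP58, the processome and small-subunit factors UTP4, UTP20 and BYSL, and the large-subunit factors RRP1B, NOP16 and BRIX1. The share of all genes with such a joint call is not given here. Groups did not overlap for 22 members (51.2%) that were lower in EloB KD, against 56.3% of all genes. EloB KD and EloC KD share their Control KD libraries, and each also enters this comparison, so the 3 sets of values are not independent.

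**Figure D2:**
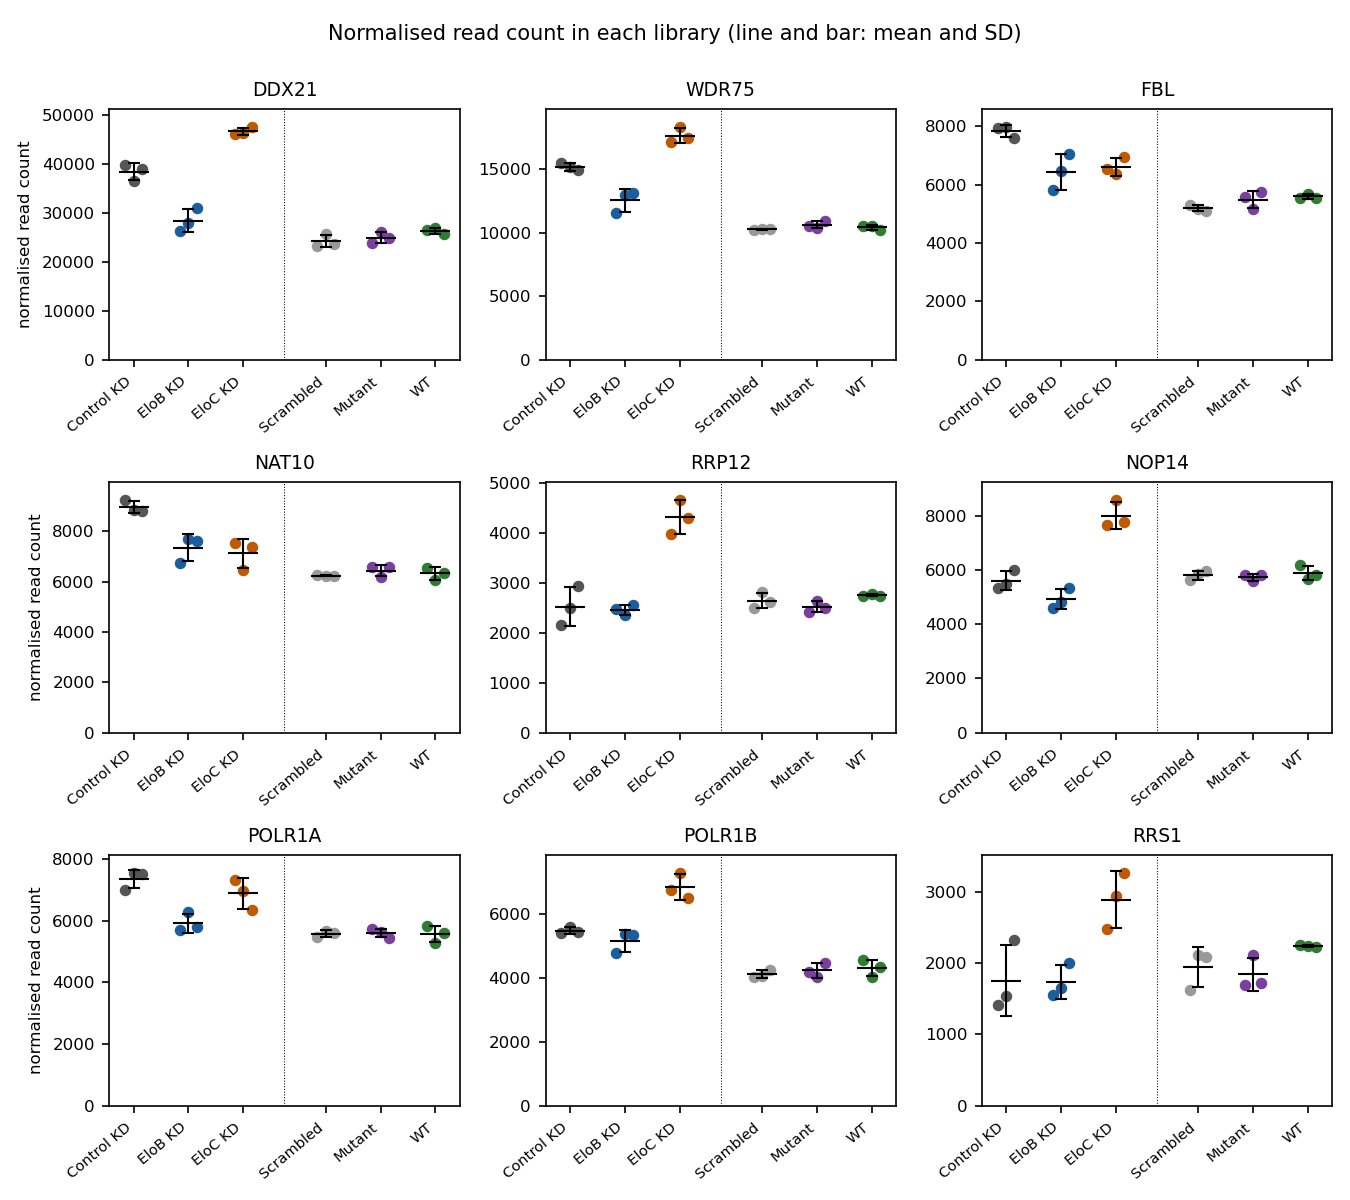
Normalised read count of 9 members in each library (points), with the mean and SD of each group, in the knockdown experiment left of the dotted line and the peptide experiment right of it. The tables of the 2 experiments were scaled separately, so levels compare only within a side. DDX21 and WDR75 lie below Control KD in EloB KD and above it in EloC KD, while FBL and NAT10 lie below it in both.

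Of the 6 genes of the Pol I machinery, 2 were called in a knockdown in the main fit (limma on all libraries, without the replicate block). POLR1A fell in EloB KD, as given above, and had 7342, 6972 and 6357 counts in EloC KD, which overlapped the controls (log2 difference -0.10 ± 0.08, limma adjusted p = 0.374). POLR1B, the second-largest subunit, had 5396, 5593 and 5442 counts in Control KD, 4764, 5383 and 5346 in EloB KD and 6755, 7279 and 6497 in EloC KD. It rose in EloC KD by 0.32 ± 0.08 on the log2 scale (limma adjusted p = 0.00976), while in EloB KD the difference was -0.09 ± 0.08 (limma adjusted p = 0.491). The 2 catalytic subunits were thus called in different knockdowns, and POLR1B but not POLR1A was called between them (limma adjusted p = 0.00237 and 0.0542; 0.027 for POLR1A with the replicate block).

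The initiation factors did not pass the test in any knockdown comparison in the main fit. RRN3, which recruits Pol I to the promoter, had 635.9, 540.9 and 614.8 counts in Control KD, 414.6, 425.5 and 542.6 in EloB KD and 446.3, 424.5 and 525.2 in EloC KD. The difference was -0.38 ± 0.14 in EloB KD (limma adjusted p = 0.0901) and -0.36 ± 0.14 in EloC KD (limma adjusted p = 0.066) on the log2 scale. With the replicate block both RRN3 differences passed (adjusted p = 0.018 and 0.0139).

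UBTF, the architectural factor of ribosomal DNA, had 10110, 11246 and 11443 counts in Control KD, 9302, 10439 and 10874 in EloB KD and 11452, 11177 and 12083 in EloC KD. TAF1D, a subunit of SL1, had 2828, 2384 and 2761, then 2657, 2514 and 2691, then 2787, 2400 and 2947 in the same order. Both genes overlapped between each knockdown and the controls, and with the replicate block UBTF was lower in EloB KD than in EloC KD (limma adjusted p = 0.035). POLR1C, shared with RNA polymerase III, had 2879, 2921 and 2510 counts in Control KD, 2735, 2575 and 2890 in EloB KD and 2318, 2644 and 2533 in EloC KD, again with overlap.

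Of the 5 nucleolar organisers, DDX21 was called in the main fit. NCL, a pre-rRNA binding protein, had 53748, 54675 and 55682 counts in Control KD and 39318, 46465 and 50293 in EloB KD, all lower, with a log2 difference of -0.28 ± 0.10 that did not pass (limma adjusted p = 0.0824; 0.0206 with the replicate block). NPM1, a histone chaperone of the nucleolus, and TCOF1 and NOLC1, which link Pol I with modification of its product, passed in no knockdown comparison in the main fit. With the replicate block NOLC1 was lower in EloC KD (limma adjusted p = 0.0272) and NPM1 lower in EloB KD than in EloC KD (0.0255).

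The 3 box H/ACA genes did not pass in the main fit and passed with the replicate block. With the block NHP2 was lower in EloB KD (limma adjusted p = 0.0037) and lower there than in EloC KD (0.0263). DKC1, the pseudouridine synthase, was then lower in EloC KD (0.0314), and GAR1 higher in EloC KD than in Control KD (0.0162) and in EloB KD (0.0463). The complex of PES1, BOP1 and WDR12, needed for large-subunit maturation, had no call in the main fit. With the block WDR12 was lower in EloC KD (limma adjusted p = 0.0489) and PES1 lower in EloC KD than in EloB KD (0.0213). In all, 21 of 43 members were called in no knockdown comparison in the main fit. The share of all genes called in none of the 3 is not given here. DESeq2 on the recovered reads, also without the block, called 9 members in EloB KD, 15 in EloC KD and 19 between them. This stood beside 3456, 6272 and 6730 of 13764 genes.

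BOP1, part of that complex, had the widest spread among the controls. Its Control KD libraries held 7997, 13722 and 19328 counts, a 2.42-fold range, beside 13030, 13905 and 15290 in EloB KD and 14706, 19303 and 23691 in EloC KD. The log2 difference in EloC KD was 0.55 ± 0.27 (limma adjusted p = 0.122, and 0.00958 with the replicate block), and between the knockdowns it was -0.43 ± 0.27 (0.223, and 0.0311 with the block). Across the 43 members, the deviation of a Control KD library from the group mean moved with the GC content of the transcript. Pearson's r was -0.78, 0.39 and 0.69 for replicates 1 to 3. In EloC KD it was -0.47, 0.02 and 0.50, in EloB KD 0.01, -0.05 and 0.04, and with the mutant peptide 0.39, 0.00 and -0.28. For the members' log2 fold changes, r with GC content was 0.31 in EloB KD, 0.22 in EloC KD and -0.03 between the knockdowns. It was 0.15 for WT against scrambled peptide, -0.32 for mutant against scrambled and 0.39 for WT against mutant. These are descriptions over genes of the same libraries, with no test. The transcripts of BOP1 and NOC4L had the highest GC content (65.2% and 64.8%).

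**Figure D3:**
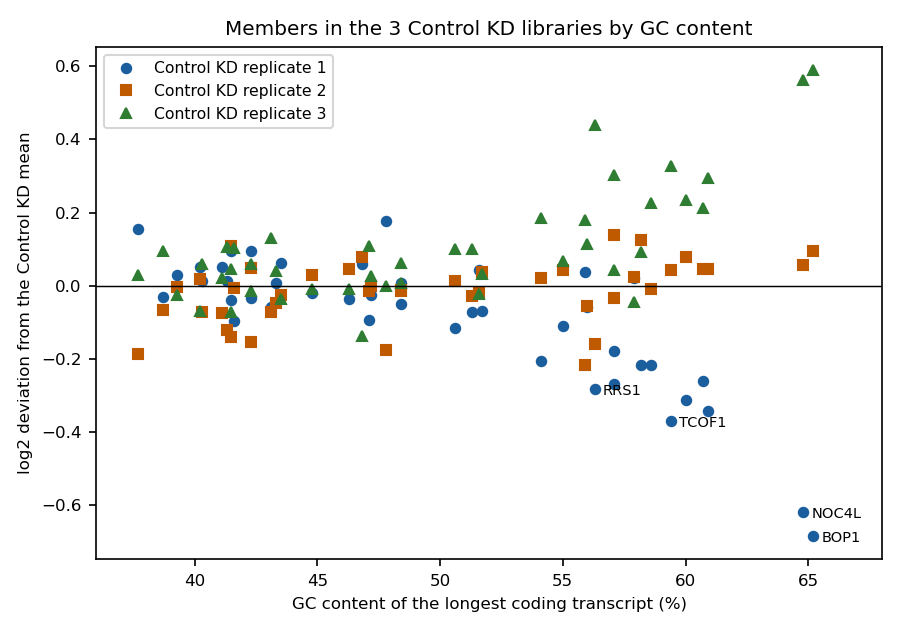
Deviation of each member from its Control KD mean, on the log2 scale, against the GC content of its longest coding transcript, with 1 symbol for each of the 3 Control KD libraries. GC-rich members lie low in replicate 1 and high in replicate 3, with BOP1 and NOC4L farthest from 0.

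The wider pathway was followed with 126 other genes in 5 lists, of which 125 passed the filter on low values. In EloB KD 17 were lower and 2 higher (15.2% called), in EloC KD 38 were higher and 12 lower (40%), and between the knockdowns 51 were lower in EloB KD and 11 higher (49.6%). Each share was near the background given above for its comparison. With the replicate block the EloB KD count was 35 (28 lower, 7 higher), beside 4996 of 13764 genes. In EloB KD the members ran from -0.46 to 0.41 on the log2 scale. Genes outside that range included RIOK1, TSR1, POLR1G, UTP23, GNL3L, POLR1E and NOP10.

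In EloB KD the small-subunit factors RIOK1, an atypical kinase, and TSR1 fell by 1.30 ± 0.13 and 0.97 ± 0.10 on the log2 scale (limma adjusted p = 0.00015 and 0.000207). UTP23 fell by 0.76 ± 0.10. They were among 7 of 38 such factors that fell, with none higher. RIOK1 averaged 875.8 counts in EloB KD, 2138 in Control KD and 2339 in EloC KD, where it was not called. Among 9 other Pol I and SL1 genes, POLR1G fell by 1.02 ± 0.19 and POLR1E by 0.53 ± 0.13, while TAF1C rose by 0.44 ± 0.13. Of 48 other large-subunit factors, 5 fell, among them GNL3L (-0.64 ± 0.08) and URB1 (-0.32 ± 0.08), and RSL24D1 rose by 0.37 ± 0.09. NOP10, of box H/ACA particles, was the 1 of 10 other ribonucleoprotein genes that fell (-0.51 ± 0.11), and EXOSC7 and EXOSC2 of the RNA exosome fell by 0.33 ± 0.08 and 0.37 ± 0.11.

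In EloC KD the other small-subunit factors split into 15 higher, such as NOL6 (0.63 ± 0.10), and 4 lower, such as DIMT1, an rRNA dimethyltransferase (-0.73 ± 0.10), and FCF1 (-0.58 ± 0.10). The other large-subunit factors split into 14 higher, such as TEX10 (0.56 ± 0.08) and DDX18 (0.55 ± 0.08), and 5 lower, led by PWP1 (5191 counts against 10333 in Control KD, limma adjusted p = 0.000119). Of the other Pol I and SL1 genes, 4 were higher, among them POLR1F (0.70 ± 0.11), TAF1C (0.67 ± 0.13) and POLR1E (0.44 ± 0.13), and 1 lower. The 10 ribonucleoprotein genes held 2 that rose, NOP10 (0.79 ± 0.11) and ZNHIT6 (0.39 ± 0.12), and 1 that fell, SNU13 (-0.62 ± 0.09). Of 20 exosome and RNase MRP genes, 3 rose, with RPP30 at 0.69 ± 0.13 and EXOSC1 at 0.56 ± 0.10, and EXOSC2 fell (-0.47 ± 0.11).

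NOP10 and POLR1E, like DDX21 and WDR75, were lower in EloB KD and higher in EloC KD than in the shared Control KD libraries. NOP10 averaged 5986 counts in Control KD, 4216 in EloB KD and 10360 in EloC KD, and POLR1E averaged 2510, 1748 and 3407. Directly compared, NOP10 was 2.47-fold lower in EloB KD than in EloC KD (limma adjusted p = 1.5e-05).

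No member was called in the main fit, which leaves the replicate numbers out, with either peptide or between the peptides. The background was 1.43% of 13105 genes for WT peptide against scrambled peptide (0.839% higher, 0.595% lower) and 0.00% for both other comparisons. At an unadjusted p under 0.05 the members numbered 10, 3 and 8 (WT against scrambled, mutant against scrambled, WT against mutant), beside 1753, 1142 and 898 of all genes. DESeq2 on the recovered reads called 3, 1 and 0 members, beside 582, 184 and 63 of 13105 genes, and edgeR called 0 members in each. With the replicate block, limma called 10 members (9 higher, 1 lower), 2 (both higher) and 5 (all higher). Over all 13105 genes the block called 2122, 1088 and 536. The comparisons with the scrambled peptide share its 3 libraries.

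With the WT peptide the members lay slightly above the scrambled group, with a median of 0.07 on the log2 scale and 37 of 43 positive, against a median of 0.00 over all genes. Groups did not overlap for 13 members that were higher and 1 that was lower (32.6% together), against 19.7% of all genes. The 5 epithelial and mesenchymal markers summed to 63822 to 66278 counts with the WT peptide and 68783 to 73341 with the scrambled peptide, and the 7 markers of other cells to 2614 to 3064 and 3613 to 3982; their part in these differences was not tested. NPM1 came nearest to the threshold. It had 16021, 15893 and 16025 counts with the scrambled peptide, 17078, 17262 and 17611 with the mutant and 18203, 17641 and 17731 with the WT peptide. The scrambled libraries were the lowest, and the log2 difference was 0.16 ± 0.03 for WT (limma adjusted p = 0.0573; 0.00134 with the replicate block) and 0.12 ± 0.03 for mutant (limma adjusted p = 0.323; 0.0195 with the block).

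Among the Pol I genes, UBTF had 7758, 7755 and 7749 counts with the scrambled peptide, 7919, 8084 and 8139 with the mutant and 8826, 8498 and 8210 with the WT peptide. These groups did not overlap, but the WT difference of 0.13 ± 0.04 did not pass (limma adjusted p = 0.133; 0.0106 with the block). TAF1D had 2073, 2061 and 2166 counts with the scrambled peptide, 1829, 2016 and 1852 with the mutant and 1701, 1885 and 1980 with the WT peptide. It was the 1 member below the scrambled group without overlap, at -0.18 ± 0.06 for WT (limma adjusted p = 0.244; 0.0182 with the block).

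RRN3 had 341.1, 415.5 and 343.7 counts with the scrambled peptide, 314.0, 354.0 and 347.3 with the mutant and 387.9, 380.2 and 358.5 with the WT peptide. POLR1C had 1962, 1844 and 1927, then 1921, 1847 and 2011, then 1940, 1855 and 1897. Neither differed from the scrambled group beyond its spread. For POLR1A and POLR1B the WT difference from the scrambled group was 0.00 (95% interval -0.10 to 0.09) and 0.06 (-0.06 to 0.19) on the log2 scale.

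WT and mutant peptide, which the labels set apart only as wild type and mutant, gave no member that passed the main fit's test of their difference. The log2 difference ran from -0.06 for GNL3 to 0.29 for RRS1, whose 95% interval was 0.04 to 0.54 before adjustment (limma adjusted p = 0.664; 0.0343 with the block). RRS1 had 2264, 2239 and 2229 counts with the WT peptide and 1701, 2119 and 1718 with the mutant. RRP9 had 3455, 3635 and 3367 with WT and 3060, 3097 and 3101 with the mutant, a log2 difference of 0.18 ± 0.05 (limma adjusted p = 0.461; 0.0233 with the block). Groups did not overlap for 12 members (27.9%), all higher with WT, against 12.1% of all genes. Over the members other than the thinly counted NOP2, the 95% intervals of the WT to mutant difference lay between -0.23 and 0.54 on the log2 scale, so larger differences lay outside them.

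**Figure D4:**
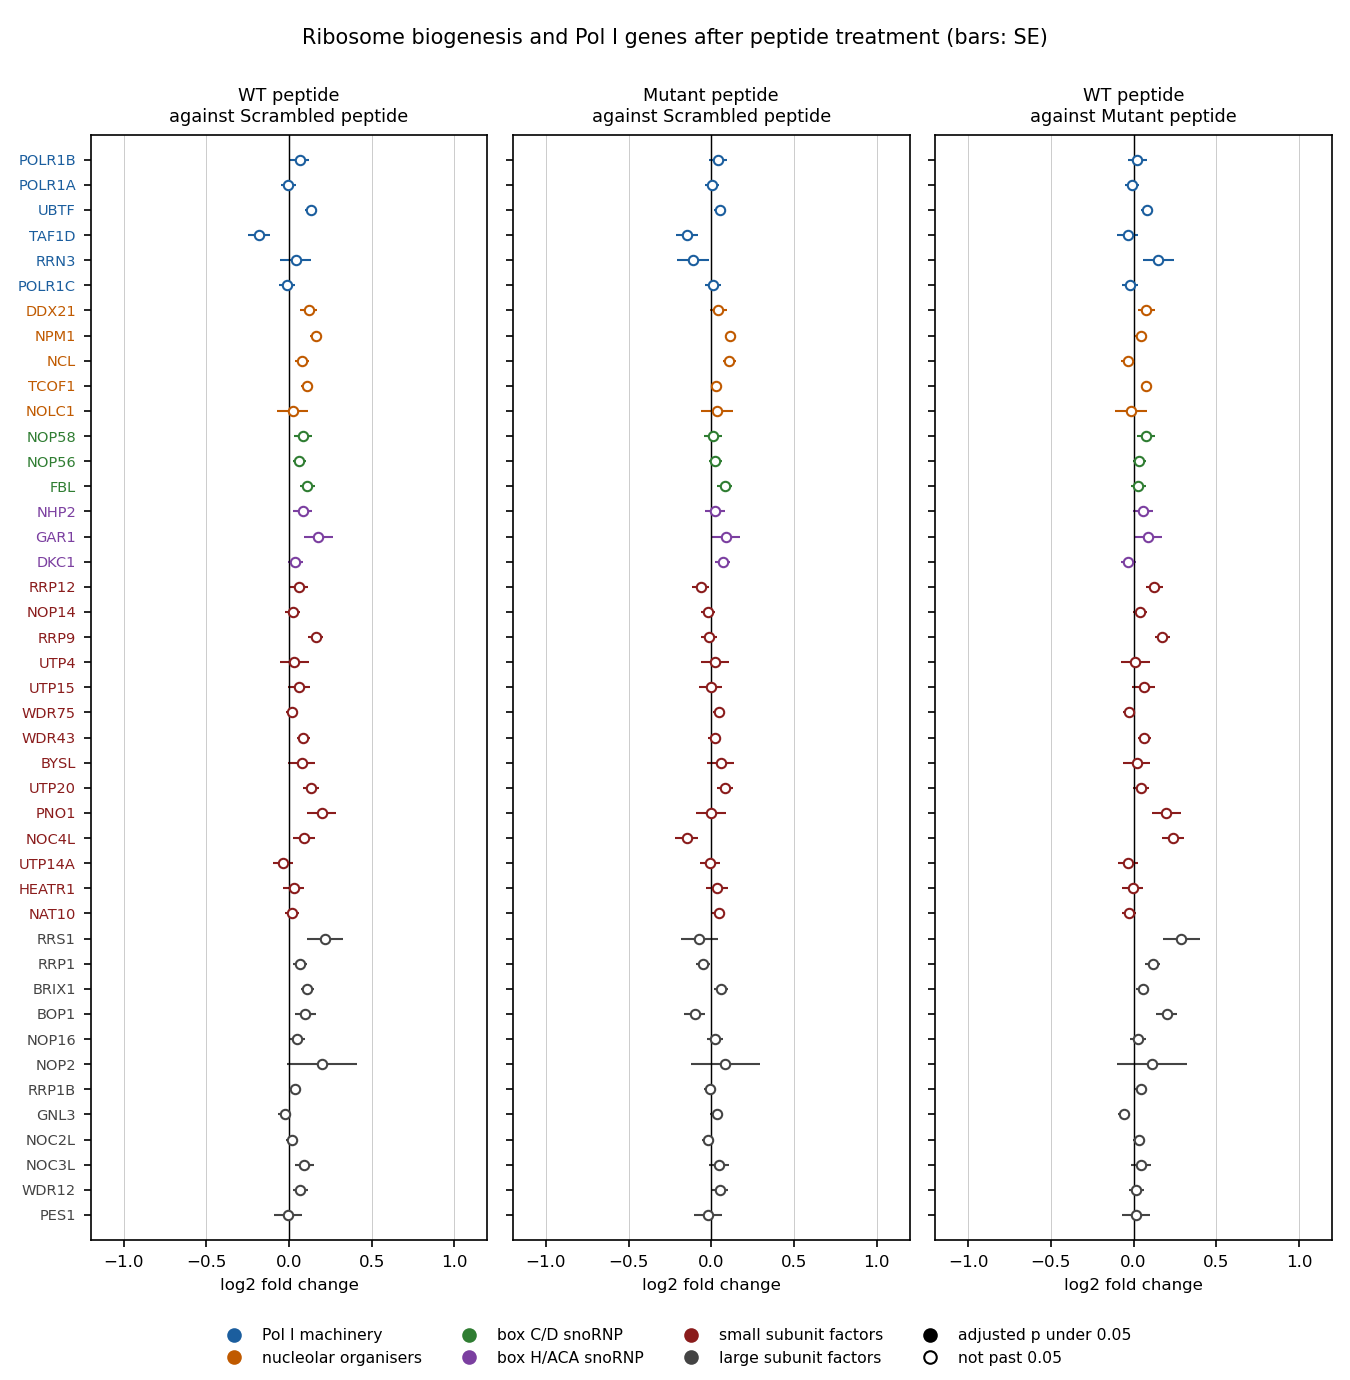
Log2 fold change of each of the 43 members (rows, coloured by role) in the 3 peptide comparisons, on the same axis as in the knockdown plot, with bars for the standard error. All points are open, for an adjusted p of 0.05 or more in the main fit, and none lies beyond 0.29 in size.

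The 22 members called in a knockdown comparison differed from the scrambled group by -0.03 (GNL3) to 0.22 (RRS1) on the log2 scale with the WT peptide. Of the 22, 20 were positive, as were 37 of all 43 members. Groups did not overlap for 7 of the 22, FBL and RRP9 among them. This stood beside 32.6% of all 43 members and 19.7% of all genes. The 4 called against Control KD in both knockdowns stood at 0.12 ± 0.05 for DDX21, 0.02 ± 0.04 for WDR75, 0.11 ± 0.04 for FBL and 0.02 ± 0.04 for NAT10 on the log2 scale, none past the threshold (limma adjusted p = 0.35, 0.896, 0.32 and 0.929). The 2 experiments differ in serum, agent and scaling, so these values stand side by side and were not compared by a test. In the authors' deposited table for the WT peptide, 2 members were called higher, UBTF and NPM1. In the authors' deposited tables for the knockdowns, 8 members were lower in EloB KD, the 6 named here with BYSL and BRIX1, and the same 13 were called in EloC KD. Between the knockdowns, the authors' deposited table had 19 lower, the 18 here and POLR1A. The authors' calls over all genes are not given here, so these member counts stand without a background share. They rest on the same libraries as the fits here.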

How the data were processed

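Libraries were prepared with a stranded mRNA kit, per the labels' protocols. The authors used featureCounts and DESeq2 with hg38, per the submitters' processing notes; the aligner, versions, annotation and strand setting are not given in the sources used here. For each experiment the authors deposited 1 table of signal, the normalised read count of every gene and library. They also deposited log2 fold changes, a test statistic (a score), adjusted p-values and other cells, used only to set calls side by side. Values divided by the smallest step of their library were whole reads, within 0.05 reads, for 100% of values.

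The main test was limma 3.58.1 (R 4.3.3) with an intensity trend on log2(normalised count + 1). Genes averaging under 10 in an experiment's 9 libraries were left out. This kept 13764 and 13105 genes, all 43 members among them. The 3 groups of an experiment shared 1 spread. The 6 comparisons were 2-sided, with p adjusted by Benjamini-Hochberg across every gene tested and called under 0.05. Fold changes are on the log2(value + 1) scale, their errors are SE, and errors of levels are SD. Nothing in the labels says that replicates were separate cultures, and p-values then cover only the spread between these samples, which may be technical. Members and lists were chosen with earlier results of these data known. Values in every library are given for the Pol I genes, the 6 called members of smallest adjusted p in each comparison with a control, the 4 in each other comparison, and members called against the majority. Other pathway genes are named up to 3 per list and comparison. A few further members were named after their values were seen.

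Alternatives were edgeR 4.0.16, DESeq2 1.42.0, other scalings, filters and pseudocounts, fits of the compared groups alone, each library left out and a replicate block. Same-numbered libraries deviated together over genes, so the numbers were taken to pair the samples. The correlation r ran from 0.236 to 0.566 in the knockdown and from 0.254 to 0.715 in the peptide experiment, every pair above 0.1. The main fit leaves this pairing out, so its calls are those of an unpaired test. Counts with the replicate block, which uses the pairing, are given beside them. Tested on simulated data, the fit recovered 62.2% of genes changed by 0.5 on the log2 scale and 95.9% of those changed by 1 for EloB KD against Control KD (13758 genes), with 10.9% false calls among those made. For WT against scrambled peptide (13106 genes) these were 62.6%, 97% and 4.79%. The simulated counts had the same extra spread for every gene and no deviation shared by same-numbered libraries. Only 98 tested genes were changed by each size for EloB KD, and 99 and 100 for the WT peptide. The real libraries differ in these points, so the rates may not hold for them. Promoters are from RefSeq (GRCh38.p14), matched by symbol for 36 of 43 members. Some marker genes are not reported here.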

Additional observations from a re-analysis of the deposited data

How the results depend on the processing

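Of 739 values of called members under the alternatives, all had the sign of the main fit, 629 were past the threshold and no result reversed. These members were selected by the threshold and the alternatives reuse the same libraries, so the shared sign is no separate evidence. Of 4415 values of uncalled members, 185 had another sign than in the main fit. The number of members called in EloB KD against Control KD was 6 in the main fit, beside 2822 of all genes. It was 1 with quantile scaling (2707 genes) and 2 when only the 2 groups were fitted (2425 genes). It ran from 1 to 6 when 1 library was left out (1920 to 2871 genes). Leaving out the libraries numbered 1 together, an alternative chosen after seeing the data, gave 0 (1271 genes). The number in EloC KD, 13, ran from 6 to 16 when 1 library was left out (4495 to 6114 genes). That between the knockdowns, 18, ran from 15 to 19 (5162 to 6532 genes). With the replicate block the counts were 15 (EloB KD), 24 (EloC KD) and 27 (between them), beside 4996, 7841 and 8171 of 13764 genes. They were 10, 2 and 5 for WT against scrambled, mutant against scrambled and WT against mutant peptide, beside 2122, 1088 and 536 of 13105 genes. In these 3 the main fit called 0 members. For the WT peptide a filter at a mean of 50 called 1 member, beside 212 of 11696 genes. DESeq2 called 3 for the WT peptide and 1 for the mutant, beside 582 and 184 of 13105 genes. Leaving out any library called 0 members in all 3 peptide comparisons. Over all genes such fits called 66 to 205 for WT against scrambled peptide, 0 to 1 for mutant against scrambled and 0 to 2 for WT against mutant. The cause of these shifts was not tested. In the simulated data with 3 libraries a group, changes of 0.5 on the log2 scale were recovered in part. The spread of those data was not fitted to either experiment, so they do not give the share recovered in the real libraries.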

Other observations

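Exons of further members overlap genes on the opposite strand in GENCODE 29: 27.4% of the exon bases of NHP2 are shared with RMND5B and 23.2% of those of HEATR1 with LGALS8. Of members called in the main fit, NOP14 shares 17.1% of its exon bases with NOP14-AS1 on the opposite strand. Smaller overlaps, some of them in called members, are not listed. The strand setting of the counting is not given in the sources used here, and whether it kept the reads of these pairs apart was not tested. RRS1, also called, shares 11.4% of its exon bases on the same strand with ENSG00000285655, which had 0 counts in every library. The part of this overlap in the RRS1 count was not tested. In the main fit neither NHP2 nor HEATR1 was called in any comparison. With the replicate block NHP2 was lower in EloB KD than in Control KD (limma adjusted p = 0.0037) and than in EloC KD (0.0263).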
